A study of Homo sapiens with 4 samples.

Results

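The SRSF, HNRNP, SNRP, SF3A and SF3B genes encode core and regulatory proteins of pre-mRNA splicing, and their mRNA levels were compared between PRMT6-knockout and control cells of the human gastric cancer line AGS. Members were the genes, pseudogenes left out, whose current symbol starts with one of those prefixes and that have a probe set of their own on the array, meaning a probe set annotated to that gene and no other. There were 52 such genes among the 19775 genes with a probe set of their own. Of these, 12 were SNRP, 19 HNRNP, 10 SRSF and 9 SF3A or SF3B genes, and 2 were non-coding transcripts that share a symbol root, HNRNPD-DT and SNRPF-DT. SRSF2, SRSF9, HNRNPH2, HNRNPA1L2, HNRNPCL1, HNRNPCL2, HNRNPCL3, HNRNPCL4 and the read-through HNRNPUL2-BSCL2 are read only by probe sets that also match another gene and were therefore not analysed here.

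AGS is an epithelial line from a gastric adenocarcinoma, grown here in RPMI1640 with fetal bovine serum. Biotin-labelled RNA was hybridised to 1 Affymetrix array per sample, with 2 arrays for AGS with wild-type PRMT6 (AGS-control) and 2 for AGS with PRMT6 disrupted (AGS-PRMT6-KO). The knockout was made with a lentiCRISPR v2 lentivirus carrying a guide against PRMT6, followed by puromycin and by limiting dilution to obtain clones. The labels do not say which clone each knockout array came from, nor whether the controls carried a vector or went through selection and cloning. Clonal origin, vector exposure and loss of PRMT6 therefore cannot be told apart. Nothing in the labels says that arrays of a group came from separate cultures, so each p-value measures only the spread between these arrays, which may be technical.

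Intron removal is carried out by small nuclear ribonucleoproteins, particles in which a uridine-rich small nuclear RNA is held by a ring of Sm proteins. The U1 particle recognises the start of an intron and the U2 particle, which contains the SF3A and SF3B complexes, recognises the branch point. SR proteins (the SRSF genes) usually promote the inclusion of exons they bind, whereas hnRNPs often oppose it, and the balance between them shapes alternative splicing. PRMT6 is a nuclear arginine methyltransferase, and arginine methylation by enzymes of its family is a well-known modification of hnRNPs and of several Sm proteins. An mRNA array reads neither the modification nor the protein.

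The guide is shown because it defines the knockout group. It is a designed sequence whose position in the genome was not mapped here.
PRMT6 guide: gacggtactggacgtgggcg

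The start regions of SNRPA1, SNRPF, SNRPG and HNRNPM are shown because these 4 members had the highest knockout-minus-control differences. Each window holds 250 bases before and 50 bases after the first listed transcription start, on the strand of the gene, from RefSeq annotation of GRCh38.p14. They lie at chr15:101295199-101295498 on the minus strand for SNRPA1, chr12:95858702-95859001 on the plus strand for SNRPF, chr2:70293409-70293708 on the minus strand for SNRPG and chr19:8444725-8445024 on the plus strand for HNRNPM. Capitals mark letters of the 7 motifs searched, which are described with the promoter results.
SNRPA1: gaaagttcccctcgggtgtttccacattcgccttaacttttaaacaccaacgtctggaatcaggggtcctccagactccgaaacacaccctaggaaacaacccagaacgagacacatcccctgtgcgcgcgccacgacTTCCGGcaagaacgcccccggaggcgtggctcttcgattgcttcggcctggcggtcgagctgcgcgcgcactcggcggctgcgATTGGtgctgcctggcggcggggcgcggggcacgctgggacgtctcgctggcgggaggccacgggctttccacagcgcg
SNRPF: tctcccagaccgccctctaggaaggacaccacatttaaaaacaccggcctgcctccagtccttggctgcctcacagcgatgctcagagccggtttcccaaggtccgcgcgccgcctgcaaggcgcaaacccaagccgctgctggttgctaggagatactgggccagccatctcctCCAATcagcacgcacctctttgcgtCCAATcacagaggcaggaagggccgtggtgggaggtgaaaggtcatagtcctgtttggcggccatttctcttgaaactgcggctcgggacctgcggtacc
SNRPG: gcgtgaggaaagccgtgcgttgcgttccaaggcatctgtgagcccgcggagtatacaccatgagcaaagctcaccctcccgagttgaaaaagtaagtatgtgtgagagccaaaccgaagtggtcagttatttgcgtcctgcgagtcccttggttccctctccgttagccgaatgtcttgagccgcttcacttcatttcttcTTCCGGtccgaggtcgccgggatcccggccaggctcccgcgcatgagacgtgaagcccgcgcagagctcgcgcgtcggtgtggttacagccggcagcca
HNRNPM: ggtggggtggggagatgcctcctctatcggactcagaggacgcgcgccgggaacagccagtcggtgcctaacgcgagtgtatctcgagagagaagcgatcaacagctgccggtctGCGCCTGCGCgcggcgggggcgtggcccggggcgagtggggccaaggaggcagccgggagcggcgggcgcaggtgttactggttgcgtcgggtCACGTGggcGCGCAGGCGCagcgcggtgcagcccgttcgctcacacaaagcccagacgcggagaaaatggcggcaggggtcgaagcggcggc

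Levels are log2 probe-set intensities, a difference is the knockout mean minus the control mean on that scale, and each gene is represented by its brightest probe set. A gene-specific probe set means one whose name has no letter such as s or x before its ending. Where it was used, the brightest of that kind stood for the gene, and it can be dimmer than the brightest of all. A gene was called when its limma p-value, adjusted by the Benjamini-Hochberg method over all 19775 genes, lay below 0.05. PRMT6 read 8.03 and 8.11 on the control arrays and 7.79 and 7.63 on the knockout arrays, a difference of -0.36 (SE 0.09, n = 2 per group, limma adjusted p = 0.043). The groups did not overlap, but the transcript was still detected in the knockout; a small edit in the coding sequence need not lower the mRNA, so this does not test the editing. Without any one of the 4 arrays PRMT6 was no longer called, with adjusted p-values from 0.10 to 0.23. The epithelial markers EPCAM, KRT8, KRT18, KRT19, CDH1 and CLDN4, summed on the linear scale, stood at 14.55 to 14.60 (log2) in the control and 14.70 to 14.75 in the knockout arrays. A linear sum gives the brightest markers the most weight: 2 of the 6 were called higher (KRT8 and KRT19) and 1 lower (CLDN4), 2 of 6 differences were positive and the median was -0.05. The summed level of 6 fibroblast markers was 8.81 to 8.89 in the control and 10.21 to 10.29 in the knockout arrays, with 3 of 6 called higher, and its part in the results below was not tested. Of the 6 fibroblast markers 1 is brighter than the median gene, with a difference of 1.56, and the median level of the 6 is 4.18. With gene-specific probe sets, which 5 of these markers have, 0 were called in limma, 0 had an unadjusted p below 0.05 and the median was 0.09 in place of 0.57. In bulk RNA more cells of a type and more RNA per cell cannot be told apart. Of the 4 immune, 3 endothelial and 1 erythroid markers measured, 0 were called in the limma fit, and 3, 0 and 0 had an unadjusted p below 0.05. Intensities have no true zero, so no marker can be said to be absent.

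Among the 50 protein-coding members 22 were called higher in the knockout and 1 lower, which is 44.0% higher against 12.4% of all genes called higher and 11.5% called lower. Among the 9887 genes brighter than the median gene, the range in which 48 of the 50 members lay, 21.6% were called higher. That range is not matched for level, with a median of 8.28 against 11.01 for the members. Of the 10 reference genes used for scaling below, with a median level of 12.32, 5 were called higher, and their median difference was 0.26. The median difference of the members was 0.26, against -0.01 over all genes. Both knockout arrays lay above both control arrays for 43 of the 50 members. This held for 29.1% of all genes and for 4165 of the 9887 genes brighter than the median gene. In 2 members, SRSF6 and SRSF12, both knockout arrays lay below both controls, and in 5 the groups overlapped. These counts rest on all 4 arrays. Without control replicate 1 the number called higher among all 52 members was 15 and without control replicate 2 it was 11. Without knockout replicate 1 or knockout replicate 2 none was called by limma, with the lowest adjusted p at 0.052 and 0.054 and with 23 and 22 members at an unadjusted p below 0.05. All 22 genes kept a positive difference in each of these 4 fits.

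The amount by which the arrays are scaled matters for these directions. The deposited values set all arrays to about the same median, between 5.01 and 5.02. When the arrays were instead set to equal means of 10 reference genes, of which 5 were themselves called higher, the median of all genes moved by -0.25. With that scaling 11 members were called higher and 3 lower (SRSF12, SRSF6 and SNRPN), against 6.24% and 36.8% of all genes, and the median over all 52 members was 0.00 against -0.26 over all genes. This scaling moves every gene by the same amount, so the distance between the members and all genes is unchanged by construction, while a member's own difference between 0 and 0.25 changes sign with the scaling.

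**Figure D1:**
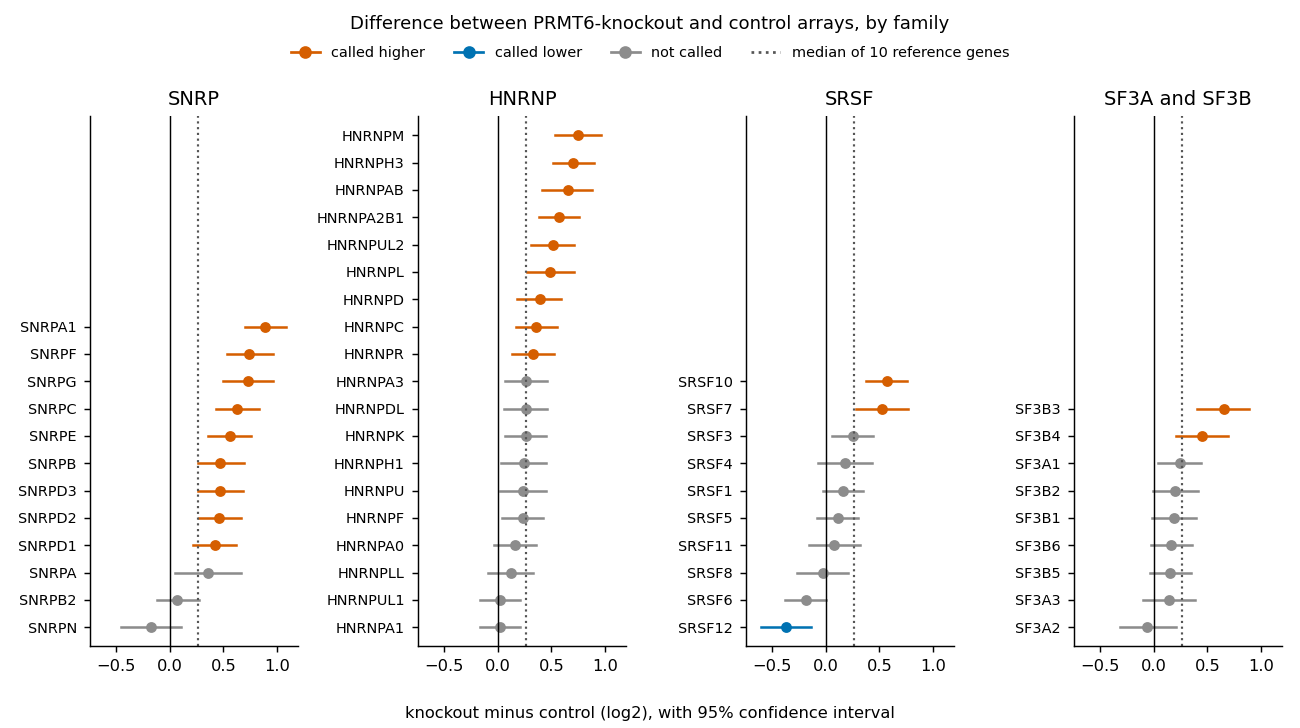
Difference between knockout and control arrays (log2, x axis) for each of the 50 protein-coding members, in 1 panel per family, with its 95% confidence interval from limma; the dotted line marks the median of the 10 reference genes, 0.26. In the SNRP panel 9 of 12 genes are called higher, in the HNRNP panel 9 of 19, in the SRSF panel 2 of 10 with 1 lower, and in the SF3A and SF3B panel 2 of 9.

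The SNRP genes, which encode Sm proteins and proteins specific to U1 and U2, had the highest family median, 0.47, and 9 of the 12 were called higher. That difference between families was not itself tested. SNRPA1, the U2 protein known as U2 A-prime, read 10.11 and 10.08 in control and 10.98 and 10.99 in knockout cells. Its difference of 0.89 (SE 0.07, 95% interval 0.70 to 1.08, n = 2 per group, limma adjusted p = 0.0020), or 1.85-fold, was the largest of any member. SNRPF, a Sm ring protein, read 10.57 and 10.61 against 11.27 and 11.40, a difference of 0.74 (SE 0.09, adjusted p = 0.0043), and its neighbour in size of change was SNRPG, also of the ring. SNRPG read 10.82 and 10.83 in control and 11.47 and 11.65 in knockout cells, a difference of 0.73 (SE 0.09, adjusted p = 0.0052). SNRPC, the U1 protein that contacts the paired start of the intron, read 9.91 and 9.85 against 10.47 and 10.53, a difference of 0.63 (SE 0.08, adjusted p = 0.0054). In each of these 4 genes the gap between the groups was several times the distance between the arrays of a group.

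The Sm ring is formed by the products of 7 genes, SNRPB, SNRPD1, SNRPD2, SNRPD3, SNRPE, SNRPF and SNRPG, and all 7 were called higher, with differences from 0.42 to 0.74 and a median of 0.47. This subset follows the known composition of the ring but was named after the values had been seen. SNRPE read 11.84 and 11.92 in control and 12.42 and 12.46 in knockout cells, a difference of 0.56 (SE 0.08, adjusted p = 0.0075). SNRPB, whose gene yields the SmB proteins, read 11.84 and 11.83 against 12.24 and 12.37, a difference of 0.47 (SE 0.08, adjusted p = 0.015). SNRPD3 differed by 0.47, SNRPD2 by 0.46 and SNRPD1 by 0.42, the lowest of the ring. SNRPE was not called as an average over its probe sets (0.36, adjusted p = 0.077) or on its gene-specific probe set (0.46, adjusted p = 0.14), whereas the gene-specific probe set of SNRPD1 gave 0.72. With reference gene scaling the ring's median was 0.22, and SNRPB, SNRPD1, SNRPD2 and SNRPD3 were no longer called, at 0.17 to 0.22. The number of SNRP genes called was 6 without control replicate 1, 5 without control replicate 2 and 0 without either knockout array, where 9 of 12 still had an unadjusted p below 0.05 in the limma fit.

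**Figure D2:**
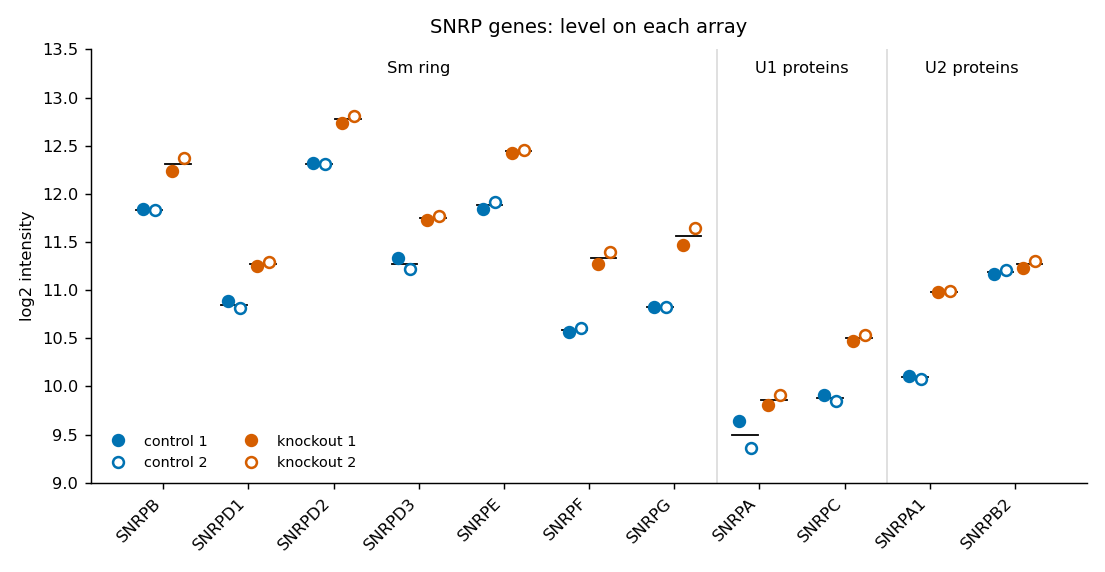
Log2 intensity (y axis) of 11 SNRP genes on each of the 4 arrays, with black bars at the group means; SNRPN, at 2.02 to 2.38, lies below the axis range and is not drawn. The knockout points lie above the control points in all 11 genes, with the smallest gap in SNRPB2, where 11.17 and 11.21 stand against 11.23 and 11.30.

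The remaining 3 SNRP genes were not called. SNRPA, the U1 protein that binds a stem loop of the U1 RNA, read 9.64 and 9.36 in control and 9.81 and 9.91 in knockout cells, a difference of 0.36 (SE 0.12, adjusted p = 0.095) in which the distance between the controls was wide. SNRPB2, which binds the U2 RNA as the partner of the SNRPA1 product, differed by 0.07 on its brightest probe set (SE 0.08, 95% interval -0.12 to 0.27, adjusted p = 0.58). Its other probe set, with a mean level of 4.89, was at 0.53 and called higher in the fit on all probe sets (limma adjusted p = 0.027). As an average over its probe sets SNRPB2 was at 0.30 and called higher (limma adjusted p = 0.041). On the brightest probe sets the interval of SNRPB2 lies wholly below that of SNRPA1, although the difference between the partners was not tested across genes. SNRPN, a tissue-restricted relative of SNRPB, read 2.24, 2.38, 2.02 and 2.25 on the 4 arrays in that order, near the lowest intensities of the table, and its groups overlapped. The non-coding transcript SNRPF-DT, which starts next to SNRPF, differed by -0.09 (adjusted p = 0.63).

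All 19 HNRNP genes had a positive difference, 9 were called higher and none was called lower in the limma fit, with 15 of 19 at an unadjusted p below 0.05. The family median was 0.26. The share called higher was 47.4%, and all 19 are brighter than the median gene, where 21.6% of genes were called higher. In that range 5472 of 9887 genes had an unadjusted p below 0.05 in limma, in either direction. HNRNPM, which binds GU-rich RNA and regulates alternative exons, read 11.00 and 10.92 in control and 11.65 and 11.76 in knockout cells, a difference of 0.75 (SE 0.09, adjusted p = 0.0042), or 1.68-fold. HNRNPH3, a relative of the G-tract binding hnRNP H proteins, read 9.70 and 9.66 against 10.36 and 10.40, a difference of 0.70 (SE 0.08, adjusted p = 0.0037). HNRNPAB read 11.53 and 11.37 against 12.06 and 12.13, a difference of 0.65 (SE 0.09, adjusted p = 0.0075). The groups were separate in each, and these differences were of the same order as those of the leading Sm genes.

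HNRNPA2B1, an hnRNP with an arginine- and glycine-rich tail that is a known target of arginine methylation, read 12.02 and 12.05 in control and 12.62 and 12.59 in knockout cells, a difference of 0.57 (SE 0.08, adjusted p = 0.0062). HNRNPUL2 read 8.66 and 8.73 against 9.18 and 9.23, a difference of 0.51 (SE 0.08, adjusted p = 0.0098). HNRNPL, which binds CA repeats, read 9.57 and 9.46 against 10.04 and 9.96, a difference of 0.49 (SE 0.09, adjusted p = 0.014). The other called members were HNRNPD, an AU-rich element binding protein, at 0.39, HNRNPC, which binds uridine tracts, at 0.36, and HNRNPR at 0.33. The 3 had adjusted p-values of 0.025, 0.024 and 0.034. These calls depended on the processing. HNRNPR was at -0.03 (adjusted p = 0.94) on its gene-specific probe set, with a mean level of 6.15 against 11.79 for its brightest. As an average over its probe sets HNRNPR was not called (0.26, adjusted p = 0.11). Its second brightest probe set, at a level of 10.60, was at 0.47 and called higher in the fit on all probe sets (limma adjusted p = 0.036). HNRNPD was at 0.19 (adjusted p = 0.38) on its brightest gene-specific probe set, whereas HNRNPC was at 0.79 with its own. Dimmer gene-specific probe sets of HNRNPD gave 0.91 and 0.84, called in the fit on all probe sets, and 0.56 and -0.28, not called. With the replicate block HNRNPR and HNRNPC had adjusted p-values of 0.065 and 0.051.

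HNRNPA1, a close relative of HNRNPA2B1 and the best-studied hnRNP of exon silencers, read 11.49 and 11.45 in control and 11.47 and 11.51 in knockout cells, and the groups overlapped (difference 0.02, 95% interval -0.17 to 0.21, limma adjusted p = 0.90). On its brightest gene-specific probe set, with a mean level of 8.45 against 11.48, HNRNPA1 was at 0.50 and called higher (limma adjusted p = 0.041). HNRNPUL1 also differed by 0.02 on its brightest probe set. A further 8 genes lay between 0.12 and 0.26 without being called: HNRNPLL, HNRNPA0, HNRNPF, HNRNPU, HNRNPH1, HNRNPK, HNRNPDL and HNRNPA3. HNRNPK, a poly(C)-binding protein, was the nearest of them to the threshold together with HNRNPA3, each with an adjusted p of 0.065, and read 12.42 and 12.41 against 12.69 and 12.66. On its brightest gene-specific probe set, with a mean level of 7.25 against 11.68, HNRNPDL was at 0.83 and called higher (limma adjusted p = 0.0041). In these 8 genes both knockout arrays lay above both controls, as in 29.1% of all genes and 4165 of the 9887 brighter than the median gene. Their direction depended on the scaling. With reference gene scaling HNRNPLL, HNRNPA0, HNRNPF, HNRNPU and HNRNPH1 lay from -0.13 to -0.01, and HNRNPK, HNRNPDL and HNRNPA3 at 0.01. The 9 called genes stayed positive. HNRNP calls numbered 5 without either control array in turn and 0 without either knockout array, where 10 (knockout replicate 1 left out) and 9 (knockout replicate 2 left out) of 19 had an unadjusted p below 0.05. With reference gene scaling 4 remained called (HNRNPM, HNRNPH3, HNRNPAB and HNRNPA2B1) and the family median was 0.01. The non-coding HNRNPD-DT, which starts beside HNRNPD, differed by 0.24 (adjusted p = 0.085).

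Of the 10 SRSF genes 2 were called higher and 1 lower, with a median of 0.13. That share, 2 of 10, is close to the 21.6% among genes brighter than the median gene, where 9 of the 10 lie and 1912 of 9887 were called lower, so the count says nothing particular about the family. SRSF10, an SR protein that represses splicing when dephosphorylated, read 9.95 and 9.88 in control and 10.47 and 10.50 in knockout cells, a difference of 0.57 (SE 0.08, adjusted p = 0.0069). SRSF7, which also takes part in mRNA export, read 11.48 and 11.28 against 11.88 and 11.92, a difference of 0.52 (SE 0.10, adjusted p = 0.017), which its other probe sets did not show. SRSF12, a splicing repressor of the family, read 3.05 and 3.23 against 2.77 and 2.77, a difference of -0.37 (SE 0.09, adjusted p = 0.041). That probe set is among the dimmest of the table, and the call was lost without any one of the arrays, with the intensity trend in the fit and as an average over its probe sets.

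The remaining 7 SRSF genes were not called. SRSF3, which regulates splicing and export and can promote cell growth, read 12.11 and 12.09 against 12.33 and 12.37, a difference of 0.25 (adjusted p = 0.072). SRSF1, the founding SR protein and a proto-oncogene, read 11.66 and 11.65 against 11.80 and 11.83, a difference of 0.16 (adjusted p = 0.22). On its brightest gene-specific probe set, with a mean level of 7.25 against 11.74, SRSF1 was at 0.60 and called higher (limma adjusted p = 0.016). SRSF4, SRSF5 and SRSF11 lay at 0.18, 0.11 and 0.08. SRSF6 read 10.85 and 10.80 in control and 10.64 on both knockout arrays, a difference of -0.19 (adjusted p = 0.15), which was called lower with reference gene scaling (-0.44, adjusted p = 0.010). SRSF8 lay at -0.03 with overlapping groups. The family median turned to -0.12 with reference gene scaling, with SRSF10 alone still called higher. The number of SRSF genes called higher was 2 without control replicate 1, 1 without control replicate 2 and 0 without either knockout array, where 2 had an unadjusted p below 0.05 in each limma fit.

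The SF3A and SF3B genes had a median difference of 0.19, and 2 of 9 were called (22.2%), both of the SF3B complex. All 9 are brighter than the median gene, and the share is close to the 21.6% called higher in that range, so the count says nothing particular about these complexes. SF3B3, a large scaffold subunit of SF3B, read 8.80 and 8.62 in control and 9.31 and 9.40 in knockout cells, a difference of 0.65 (SE 0.10, adjusted p = 0.0091). SF3B4, which contacts the intron upstream of the branch point, read 9.02 and 8.85 against 9.43 and 9.34, a difference of 0.45 (SE 0.10, adjusted p = 0.026). The other SF3B subunits lay between 0.15 and 0.20, including SF3B1 at 0.19 (adjusted p = 0.18), the subunit that holds the branch point and is recurrently mutated in leukaemia. SF3A1, SF3A3 and SF3A2 differed by 0.24, 0.14 and -0.06, and none of the 3 was called in the limma fit, with 1 at an unadjusted p below 0.05. Whether subunits of the complex differed from each other was not tested. The gene-specific probe set of SF3B3 gave 0.42 and was not called (adjusted p = 0.067). The SF3B calls both held without control replicate 1, were lost without control replicate 2 and without either knockout array, and with reference gene scaling SF3B3 alone stayed called, with a family median of -0.06.

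Most members are read by several probe sets, which can lie on different parts of a transcript or on different transcripts. A probe set name ending in s marks probes shared by several transcripts, and one ending in x marks probes that may match other genes as well. Of the 50 brightest probe sets 26 were of the first kind and 6 of the second (HNRNPA1, HNRNPU, SF3B4, SRSF7, SRSF8 and SRSF10), so levels of these 6 are uncertain where near-identical copies exist. Over all 155 probe sets of the coding members, 45 were called higher and 0 lower when limma was fitted to all 54613 probe sets, of which 6.68% were called higher. Among the 155, 22 of the called ones belonged to HNRNP, 15 to SNRP, 7 to SRSF and 1 to SF3A or SF3B genes. No member had probe sets called in opposite directions. Probe sets of a gene share the same RNA and are not replicates.

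SNRPA1 and HNRNPH3 were called on each of their 4 probe sets, with differences of 0.89 to 1.32 and 0.70 to 0.82. HNRNPD was called on 4 of 9, up to 0.91, although its brightest probe set did not pass in that larger fit (adjusted p = 0.055). HNRNPU, not called as a gene, was called on 3 of its 5 probe sets, at 0.43, 0.65 and 0.59. SRSF3 was called on 2 of 6 and SRSF1 on 1 of 8, while all probe sets of each had a positive difference. SRSF8 was below 0 on all 4, from -0.20 to -0.03, and none was called.

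In other members the probe sets were further apart. For SRSF7 it gave 0.52, whereas the other 3 gave -0.17, -0.03 and 0.02. The HNRNPA2B1 probe sets gave 0.57 and 0.77, both called, but also 0.03 on one with a mean level of 10.60 and -0.04 on a dim one. HNRNPM was called on its 2 brightest, at 0.75 and 0.66, and not on 5 dimmer ones between -0.03 and 0.48. With the mean of probe sets HNRNPM was at 0.34 and HNRNPA2B1 at 0.33, both still called, and on its gene-specific probe set HNRNPM was at 0.31 and not called (adjusted p = 0.27). HNRNPA1 gave 0.02 on its brightest probe set and 0.38 and 0.50 on the other ones. For these genes the size of the difference varied with the probe set, and differences between probe sets were not tested.

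**Figure D3:**
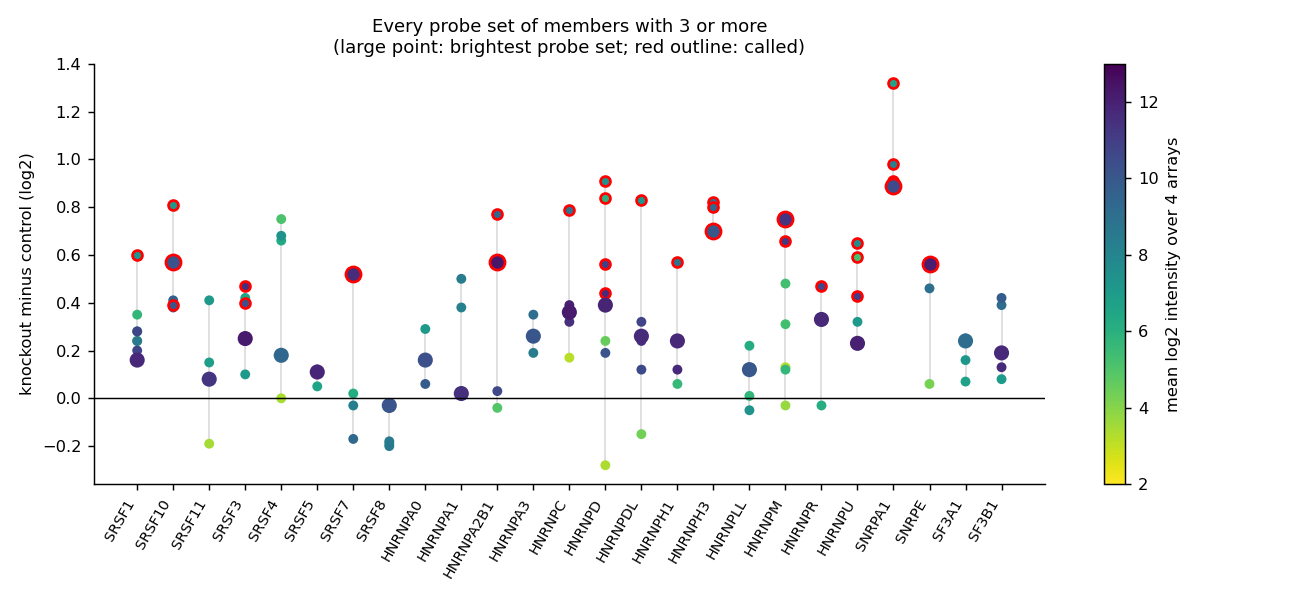
Difference between knockout and control (log2, y axis) for every probe set of the 25 members with 3 or more, coloured by mean log2 intensity; large points mark the brightest probe set of a gene and red outlines those called in the fit over all probe sets. The SNRPA1 and HNRNPH3 points are all called, whereas SRSF7 has 1 called point at 0.52 and 3 points between -0.17 and 0.02.

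Other genes of the pathway were read from lists of splicing genes. Of 16 measured genes of the SMN complex and its partners, which load Sm proteins onto small nuclear RNA, 8 were called higher and 0 lower in the limma fit, with 12 at an unadjusted p below 0.05 and a median of 0.35. GEMIN6 read 7.36 and 7.25 in control and 8.45 and 8.61 in knockout cells, a difference of 1.23 (adjusted p = 0.0017), or 0.80 as an average over its probe sets. GEMIN4, GEMIN5 and STRAP, further parts or partners of this complex, rose by 0.95, 0.74 and 0.51. PRMT5, the methyltransferase that modifies Sm proteins before their assembly, read 10.26 and 10.16 against 10.21 and 10.29, and its groups overlapped (difference 0.04, adjusted p = 0.81). Calls in this list fell to 4 without control replicate 1, 3 without control replicate 2 and 1 without either knockout array, and the count was 3 higher and 1 lower with reference gene scaling.

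Of 37 measured genes of the U1, U5 and tri-snRNP particles and the LSM proteins, which form the ring of the U6 particle, 20 were called higher and 0 lower, with 23 at an unadjusted p below 0.05 and a median of 0.46. That is 54.1% higher, and all 37 are brighter than the median gene, where 21.6% of genes were called higher. SNRNP25, a protein of the minor spliceosome, rose by 1.43 (adjusted p = 0.0013), from 8.70 and 8.53 to 9.97 and 10.13. LSM3, DDX23 and PPIH rose by 0.93, 0.92 and 0.87, of which LSM3 and PPIH were at 0.52 and 0.44, still called, with the mean of probe sets. Without a knockout array 3 (replicate 1 left out) or 1 (replicate 2 left out) remained called, without control replicate 2 10 were called, and with reference gene scaling 13 were higher and 4 lower. Of 18 branch point and U2 recruitment genes 7 were called higher (38.9%) and all 18 are brighter than the median gene, led by the helicase DDX46 at 0.84, with PUF60 at 0.55, CHERP at 0.46 and PHF5A, a subunit of SF3B with another symbol root, at 0.42. CHERP was at 0.18 and not called as an average over its probe sets (adjusted p = 0.15). In this group 1 was called without either control array in turn, 0 without either knockout array (9 and 8 at an unadjusted p below 0.05), and 1 higher and 3 lower with reference gene scaling.

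The next lists, nearer to regulation, had lower medians than the SMN, U1 and U2 lists. The families did not follow that order, with HNRNP at 0.26 and SF3A and SF3B at 0.19, and these differences were not tested. Among 20 SR kinases and SR-related proteins 6 were called higher and 1 lower, with a median of 0.12, and 18 of the 20 are brighter than the median gene, where 21.6% of genes were called higher. CLK1, a kinase that phosphorylates SR proteins, fell by 0.54 (adjusted p = 0.037), whereas its relative CLK2 rose by 0.45, ACIN1 by 0.46 and LUC7L by 0.38. LUC7L was at 0.18 (adjusted p = 0.22) as an average over its probe sets and at -0.07 (adjusted p = 0.87) on its gene-specific probe set. Among 23 hnRNP-type proteins with other symbols 6 were called higher (26.1%) and 1 lower, with a median of 0.20, which is near that same background, since 22 of the 23 are brighter than the median gene. MATR3, on a dim probe set, rose by 0.89, SYNCRIP by 0.59 and TARDBP by 0.51, and the cold-induced RBM3 fell by 0.52, a change that the mean of its probe sets (-0.17) and its gene-specific probe set (0.18) did not show. TARDBP was not called as an average over its probe sets (0.38, adjusted p = 0.056). With gene-specific probe sets 1 of 13 SR-related genes was called higher, and with the mean of probe sets 3 of 23 hnRNP-type genes. CLK1 and LUC7L were not called in any fit that left out an array, CLK2 and ACIN1 in 1 of 4. Without control replicate 1 and without control replicate 2, 2 and 0 SR-related genes and 3 and 2 hnRNP-type genes were called higher, and 0 SR-related genes lower. With either knockout array left out, 0 genes were called in both lists, 4 SR-related genes in each fit and 6 and 9 hnRNP-type genes having an unadjusted p below 0.05 in limma. With reference gene scaling the counts were 0 higher and 4 lower for SR-related genes and 3 higher and 3 lower for hnRNP-type genes.

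Of 27 tissue-restricted splicing regulators 1 was called higher and 2 lower, with a median of 0.02. Of these genes 12 are brighter than the median gene, and with reference gene scaling 1 was called higher and 5 lower, with a median of -0.23. MBNL2, a muscleblind splicing regulator, read 11.53 and 11.52 in control and 9.87 and 10.03 in knockout cells, a difference of -1.57 (SE 0.09, adjusted p = 7.4e-04). ESRP1, which maintains epithelial exon choices, read 11.23 and 11.25 against 10.06 and 10.11, a difference of -1.15 (SE 0.08, adjusted p = 0.0011). MBNL1 moved the other way, from 9.46 and 9.41 to 10.20 and 10.16, a difference of 0.75 (adjusted p = 0.0031). MBNL2 and ESRP1 stayed called in each of the 4 fits that left out an array, and MBNL1 without either control array but not without either knockout array. The range of their differences was wider than that of any of the 4 families above. Of 9 arginine methyltransferases PRMT2 (0.48) and PRMT7 (0.49) were called higher besides PRMT6 lower, and PRMT1, the most abundant such enzyme in most cells, was not (0.26, adjusted p = 0.11). The 2 of 9 called higher (22.2%) are close to the 21.6% among genes brighter than the median gene, where 8 of the 9 lie. The count therefore says nothing particular about these enzymes. PRMT7 was called in no fit that left out an array and PRMT2 in 1 of 4. With reference gene scaling 0 were called higher in limma (median -0.02, 2 of 9 at an unadjusted p below 0.05), and PRMT2 was not called on its gene-specific probe set (0.24, adjusted p = 0.13).

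All 16 genes of the mitosis list were called higher, from 0.58 for CDK1 to 1.66 for KIF20A, with a median of 0.97. Growth-associated mRNAs thus moved with the groups and by more than the median of any splicing list, and their part in the splicing results was not tested. Of the 16, 6 were called without knockout replicate 1 and 4 without knockout replicate 2, and all 16 with reference gene scaling.

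**Figure D4:**
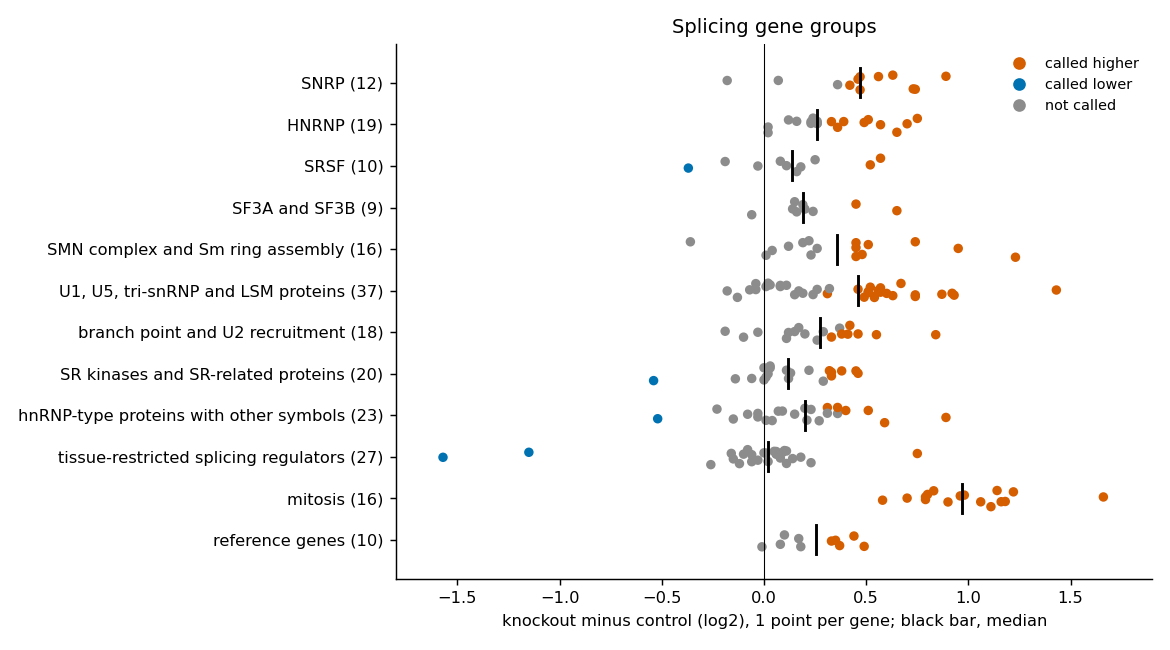
Difference between knockout and control (log2, x axis), 1 point per gene, for the 4 families, 6 further splicing lists, 16 mitosis genes and 10 reference genes, with a black bar at each median and colour for the call. The SNRP median is 0.47, that of the U1, U5, tri-snRNP and LSM list 0.46 and that of the tissue-restricted regulators 0.02, and the mitosis genes lie from 0.58 to 1.66.

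Promoter windows were listed for 47 of the 50 coding members, with none for HNRNPA1, SF3B3 and SNRPD1. They were searched on both strands for 7 motifs chosen after the expression values had been seen: the CCAAT box bound by NF-Y (CCAAT), an ETS core (CCGGAA), a YY1 motif (AAGATGGC), the NRF1 motif, an E2F motif (GCGGGAA), an E-box (CACGTG) and a TATA box (TATAAA). The ETS core was found in 7 of 11 SNRP and 6 of 8 SF3A or SF3B promoters, against 4 of 18 HNRNP and 2 of 10 SRSF promoters. It was found in 23.1% of the promoters of all genes of the fit and in 17.6% of all listed promoters. The CCAAT box showed another distribution, with 12 of 18 HNRNP promoters (66.7%), 4 of 11 SNRP, 2 of 10 SRSF and 1 of 8 SF3A or SF3B promoters, against 36.1% over the genes of the fit and 35.7% over all promoters.

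In the windows printed above, the ETS core reads TTCCGG, its reverse complement, and starts at -112 relative to the listed start site in SNRPA1 and at -49 in SNRPG. The listed start need not be the one mainly used, and starts in AGS cells were not examined. Before its listed start the SNRPG window holds an ATG with an open reading frame that runs up to GTAAGT, letters typical of an intron start. The SNRPG match, counted above, may therefore lie inside the gene and not in its main promoter. SNRPF has CCAAT at -75 and at -50, and SNRPA1 has the reverse form ATTGG at -29. HNRNPM holds neither of these but has NRF1 matches at -135 and -33 and the E-box at -42. The YY1 motif was found in 3 of 8 SF3A or SF3B promoters and in 0 of the other families' promoters, against 4.0% over the genes of the fit and 3.0% over all promoters. The E2F motif was found in 11 of 47 members (23.4%), against 8.7% and 6.6%, the E-box in 7 of 47, against 8.9% and 7.4%, the NRF1 motif in 6 of 47, against 8.8% and 6.3%, and the TATA box in 6 of 47, against 8.8% and 12.0%. Members called higher and the other members held the ETS core in 9 of 20 and 10 of 27 promoters and the CCAAT box in 10 of 20 and 9 of 27. In these counts the shares varied more between families than between called and other members, which was not tested, and a match is a description of letters and not a bound site. No motif share was computed for genes brighter than the median gene, the range of nearly all members, so these backgrounds are not matched for level.

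**Figure D5:**
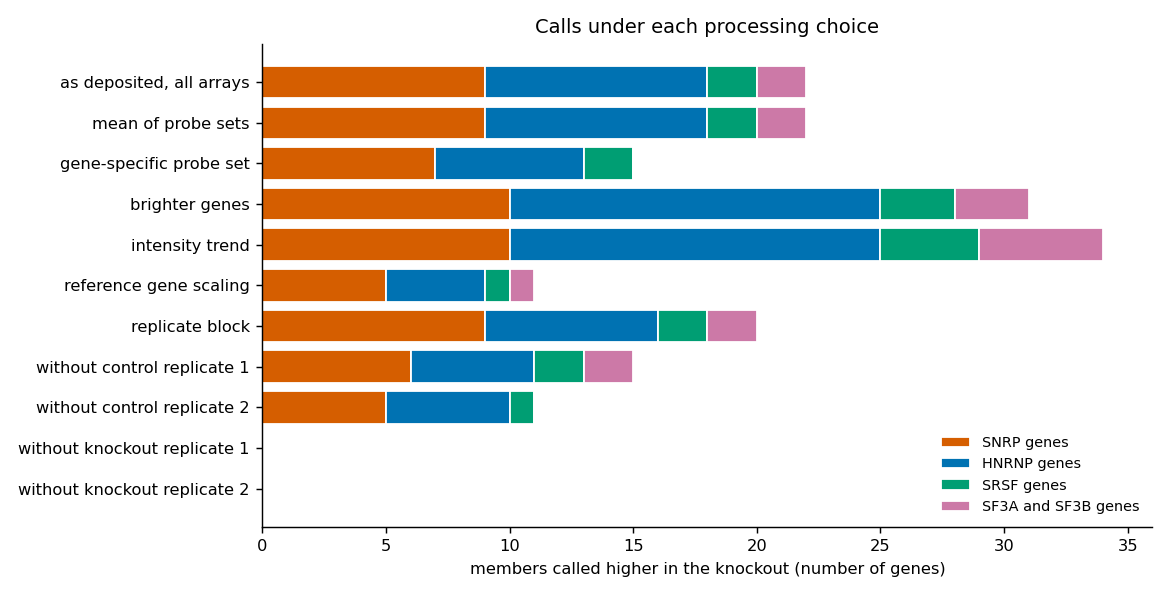
Number of members called higher in the knockout (x axis) under each way of processing, with colours for the 4 families. The bar is 22 for the deposited values on all 4 arrays, 34 with an intensity trend in the fit, 11 with reference gene scaling and 0 when either knockout array is left out.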

How the data were processed

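Gene expression was measured on 4 Affymetrix arrays. The authors deposited log2 probe-set intensities; RMA in the affy package is named in the submitters' processing notes, with versions not given in the sources used here, and the log base was read from the value range, 1.64 to 14.2. RMA sets arrays to a common distribution, so a shift of most genes in one direction would be removed. Of 54613 probe sets 41091 carried 1 gene symbol in the platform annotation, 1801 several and 11721 none listed; 41037 matched the RefSeq table of GRCh38.p14 by Entrez identifier and took its symbol. The brightest single-symbol probe set stood for each gene.

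The test was limma's moderated test (lmFit, then eBayes; version 3.58.1 under R 4.3.3), with 2 residual and 3.27 prior degrees of freedom. With 2 arrays per group their number limits the precision. The code was tested on simulated data. The alternatives were another choice of probe set, a filter on dim genes, an intensity trend, scaling to reference genes, the replicate number as a block, and leaving out each array. Genes were named by a rule: up to 6 called members per family and up to 4 called genes per list with the largest changes; others are named to account for every member. The members and lists were chosen with earlier results of these data known. Protein sequences were not analysed here.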

Additional observations from a re-analysis of the deposited data

How the results depend on the processing

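With 2 arrays per group and 1 of the 4 arrays left out in turn, members called higher ranged from 0 to 15, lower 0, and their median from 0.26 to 0.28. The ranges were 0 to 2 for SRSF genes called higher, 0 lower, 0 to 5 for HNRNP, 0 to 6 for SNRP and 0 to 2 for SF3A and SF3B genes, whose median ranged from 0.14 to 0.23; over all genes they were 154 to 1371 higher and 354 to 1258 lower. With the mean of probe sets the members' median was 0.30 with 0 called lower (SRSF 0). With the gene-specific probe set it was 0.31, with 0 lower (SRSF 0), 0 SF3A or SF3B genes and 1613 of all genes higher, and SRSF7 (-0.17) and HNRNPR (-0.03) changed sign. HNRNPA1, HNRNPDL and SRSF1, not called on their brightest probe sets, were called higher with it. The brighter genes alone gave 15 HNRNP calls, and the intensity trend gave 34 member, 15 HNRNP, 4 SRSF and 5 SF3A or SF3B calls. Reference gene scaling gave 11 members higher and 3 lower (median 0.00), with 1 SRSF higher, 2 lower and a median of -0.12, 4 HNRNP (0.01), 5 SNRP higher and 1 lower (0.22), 1 SF3A or SF3B gene (-0.06), and 1233 of all genes higher and 7280 lower. With the replicate block 20 members were called higher and 0 lower (SRSF 0), with HNRNPR, HNRNPC, SRSF12 and PRMT6 no longer called. Over all genes the deviations of same-numbered arrays from their group means correlated at 0.0516. The labels do not say whether same-numbered arrays were paired or shared a batch, and that value does not settle it. The cause of these changes was not tested, except that leaving out an array leaves the fit fewer values. All 22 called members stayed positive under every one of these alternatives but the gene-specific probe set, where 16 of the 18 with such a probe set did.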
